A study of Mus musculus with 4 samples.

Results

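The genes for the cytosolic ribosomal proteins were followed across 4 mouse mammary tumor cell lines, with 1 RNA sequencing library per line. Members were taken by symbol. These were the rows named Rpl or Rps and a digit, together with Rplp0, Rplp1, Rplp2 and Rpsa, leaving out the S6 kinases, the Rps19-binding protein Rps19bp1 and names that carry ps or a hyphen. The rule found 87 genes among the 21090 rows of the table, 53 of the large and 34 of the small ribosomal subunit. By the paper's account, the parental line came from the primary mammary tumor of a mouse with lung metastasis, and the knockouts were made from it. That mouse carried activated Pik3ca and mutant Trp53 with Cre recombinase under the MMTV promoter, which is active in mammary epithelium. The 2 controls were the parental line and a line with the vector control. The 2 knockouts had received a lentivirus for Cas9, puromycin resistance and a guide RNA against exon 3 or exon 2 of S100a4, which encodes a calcium sensor of the S100 family. No source used here says that a line is a single clone. The sample title of the exon 2 knockout carries another cell number than the other 3 titles. The labels do not say whether that line has the same origin. Values are RPKM, read counts scaled to the length of the gene and the size of the library, and are always given in the order parental, vector control, exon 3 knockout, exon 2 knockout. Each line gave 1 library, so the spread within a group is that between 2 lines, and p-values measure no other spread.

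The cytosolic ribosome is built from a large and a small subunit, each a core of ribosomal RNA dressed with many small basic proteins that are needed in nearly equal numbers. Most of these proteins are encoded by a single active gene whose mRNA begins with a short run of pyrimidines, the terminal oligopyrimidine or TOP motif, through which the mTORC1 pathway controls translation. Ribosomal protein mRNAs are short and abundant, and over evolution many were copied back into the genome as processed pseudogenes. A short read from such a gene can therefore match several places.

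S100a4 itself stood at 3576, 4741, 1136 and 1105 RPKM and so was lower in both knockouts, a log2 change of -1.88 (SE 0.31, limma adjusted p = 0.0731). Small insertions or deletions need not remove the mRNA, so this level is a partial check of the edit. The paper itself reports truncating mutations in most S100a4 transcripts of the knockout lines and loss of the protein by Western blot. Reads in genes numbered between 14609701 and 20405965 per library, of which 331693 to 487906 fell in the 87 genes. Of 6 epithelial markers only Krt8 and Krt18 reached a mean RPKM of 1, Epcam lay between 0.304 and 0.657, and all 6 mesenchymal markers were above 1, led by Vim. Of 6 leukocyte markers, Ptprc was at 0 to 0.0101 RPKM and Cd3e and Adgre1 at 0 in every library, while the macrophage and lysosome gene Cd68 was higher in both knockouts (4.92, 3.36, 11.5 and 13.2 RPKM). The summed leukocyte markers ranged from 3.38 to 4.92 RPKM in the controls and from 11.5 to 13.2 in the knockouts, nearly all of it Cd68. None of the 5 endothelial markers reached 1. The summed epithelial markers were 129.8, 34.3, 107 and 74.8 RPKM and the mesenchymal ones 4587, 2826, 2321 and 2582 RPKM, and the part of either list in the results below was not tested.

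Sequence sharing decides how firmly a level of these genes can be read, so a stretch of coding sequence is shown first for 5 members at both ends of the range of levels. Each is the middle 75 bases of a coding sequence in GENCODE M21 (GRCm38), the length of a read in this study. All lie in coding exons. The coding sequence taken was the one as long as the gene length behind the RPKM values, or else the longest. Reads came in pairs, and the match of a whole pair was not examined. The first 3 belong to members with low values, Rps6 (chr4:86854660-86857412, minus strand), the S6 kinase substrate of the small subunit, Rps23 (chr13:90922958-90924950, plus strand), a protein of the decoding centre, and Rpl5 (chr5:107900502-107909005, plus strand), which binds the ribosomal RNA of the central protuberance and, when free, Mdm2. The last 2 belong to members with high values, Rps3 (chr7:99477896-99483738, minus strand), which lines the entry of the mRNA channel, and Rpl8 (chr15:76904078-76906314, plus strand), which lies near the peptidyl transferase centre. No base is in capitals, since the whole window is what a read would show.

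Rps6, bases 338 to 412 of 750: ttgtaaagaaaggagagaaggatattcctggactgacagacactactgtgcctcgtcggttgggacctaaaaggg

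Rps23, bases 179 to 253 of 432: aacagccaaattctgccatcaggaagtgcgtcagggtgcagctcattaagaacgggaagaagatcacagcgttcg

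Rpl5, bases 410 to 484 of 894: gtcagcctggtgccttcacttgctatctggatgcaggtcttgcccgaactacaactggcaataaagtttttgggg

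Rps3, bases 329 to 403 of 732: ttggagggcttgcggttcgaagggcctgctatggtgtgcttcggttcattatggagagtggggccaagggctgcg

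Rpl8, bases 350 to 424 of 774: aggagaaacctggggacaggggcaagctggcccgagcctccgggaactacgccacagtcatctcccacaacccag

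The Rps6 window was found letter for letter in the transcript of 1 other gene, the Rps23 window in 3 and the Rpl5 window in 2, whereas the windows of Rps3 and Rpl8 were found in 0. Taking every 75-base window of a gene's coding sequence, 100% of the windows of Rps6, Rps23 and Rpl5 occur in some other annotated gene, against 0% for Rps3 and 5.43% for Rpl8. The genes that share windows with Rps6 number 11, all annotated as pseudogenes, and those for Rps23 number 10, also all pseudogenes.

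Of the 87 members, 82 averaged at least 1 RPKM across libraries and were tested (50 large and 32 small subunit genes). The 5 that did not were Rpl10l and Rpl39l, listed at 0 in every library, and Rpl3l, Rps12l2 and Rps27rt, all below 0.2 RPKM everywhere. Mean levels of the tested members ran from 2.07 RPKM for Rps23 to 3514 for Rpl8, a span of 1698-fold among proteins that the ribosome holds in nearly equal numbers. There were 9 members with a mean of at least 1000 RPKM, 55 between 10 and 1000, and 18 below 10. The 9 highest had a median of 23.1% of their windows shared with another gene, the middle group 79.99%, and the 18 lowest 100% (range 76.2% to 100%). Across the 81 tested members with an annotated coding sequence, Spearman's rho between mean level and shared windows was -0.77, a correlation across genes that share libraries, depth and ancestry and are not independent. Rpl13a was the exception at the top, with 97.4% of its windows shared and a mean of 1793 RPKM. Over all tested genes, the median share of such windows was 0% and only 4.83% of genes had over 50%. How multiply matching reads were counted is not stated, and the part of the counting rule in these levels was not tested. Levels of different members are therefore not read as amounts of their mRNAs, and the comparisons below are between libraries for the same gene.

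**Figure D1:**
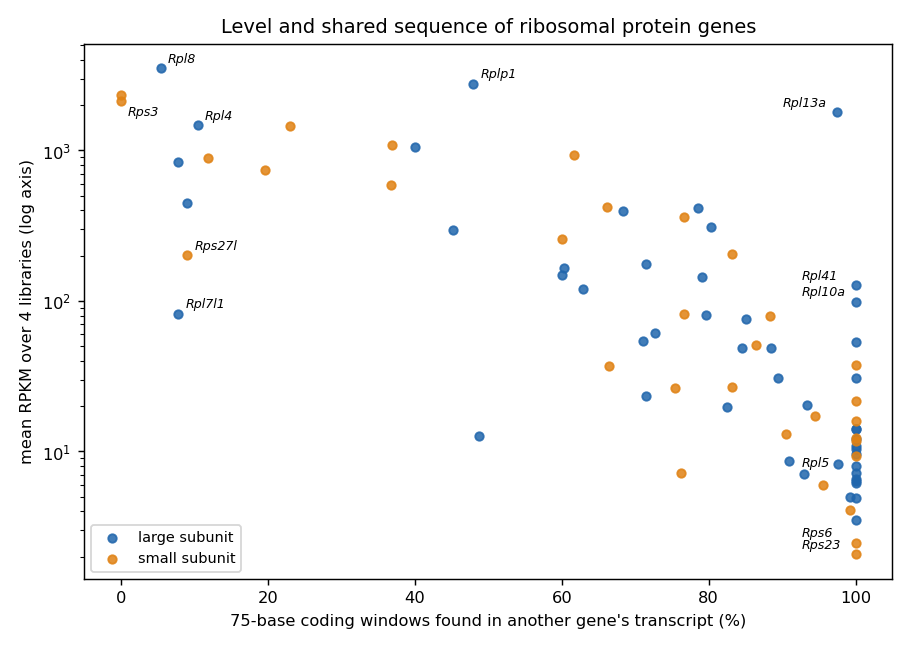
Mean RPKM over 4 libraries on a log axis against the percent of a gene's 75-base coding windows that occur in another gene's transcript, 1 point per tested ribosomal protein gene (81 with an annotated coding sequence). Rps3 stands at 0% with 2118 RPKM, Rps6 and Rps23 at 100% with 2.48 and 2.07 RPKM, and Rpl13a lies apart at 97.4% and 1793 RPKM.

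The main comparison asked how the members differed between lines edited in S100a4 and unedited lines. Cytosolic ribosomal protein genes were higher in both knockouts than in both controls for 72 of the 82 tested members, while 0 were lower in both and 10 overlapped. Over all 10871 tested genes, 21.9% were higher and 31.2% lower in both knockouts. The median log2 change of the members was 0.62, with quartiles of 0.44 and 0.80, beside -0.08 over all tested genes. All changes are of log2(RPKM + 1), which understates the change of genes at a few RPKM. The change was above 0 for 80 members and below 0 for 2.

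By limma across all 10871 genes with Benjamini-Hochberg adjustment, 0 members passed an adjusted p of 0.05, and so did 0% of tested genes in the higher and 0.0184% in the lower direction. The lowest adjusted p of a member was 0.0957, for Rpl10a. At an unadjusted p under 0.05, 34 members were higher and 0 lower, beside 5.32% of tested genes higher. By voom on the recovered reads 0 members passed the adjusted threshold and 31 the unadjusted one, beside 0 and 508 of the 10871 tested genes in the higher direction. An exact permutation test of 2 lines against 2 cannot give a two-sided p under 0.333. Without the parental library 5 members passed the limma threshold (Rpl10a, Rpl12, Rpl14, Rpl36 and Rps10), and without the vector control 6 (Rpl10a, Rpl12, Rpl36, Rpl41, Rplp2 and Rps12), beside 2.19% and 1.07% of tested genes called higher, always on the assumption that the remaining control varies like the knockouts. In bulk RNA, more ribosomal protein mRNA per cell and a larger share of cells rich in it cannot be told apart.

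**Figure D2:**
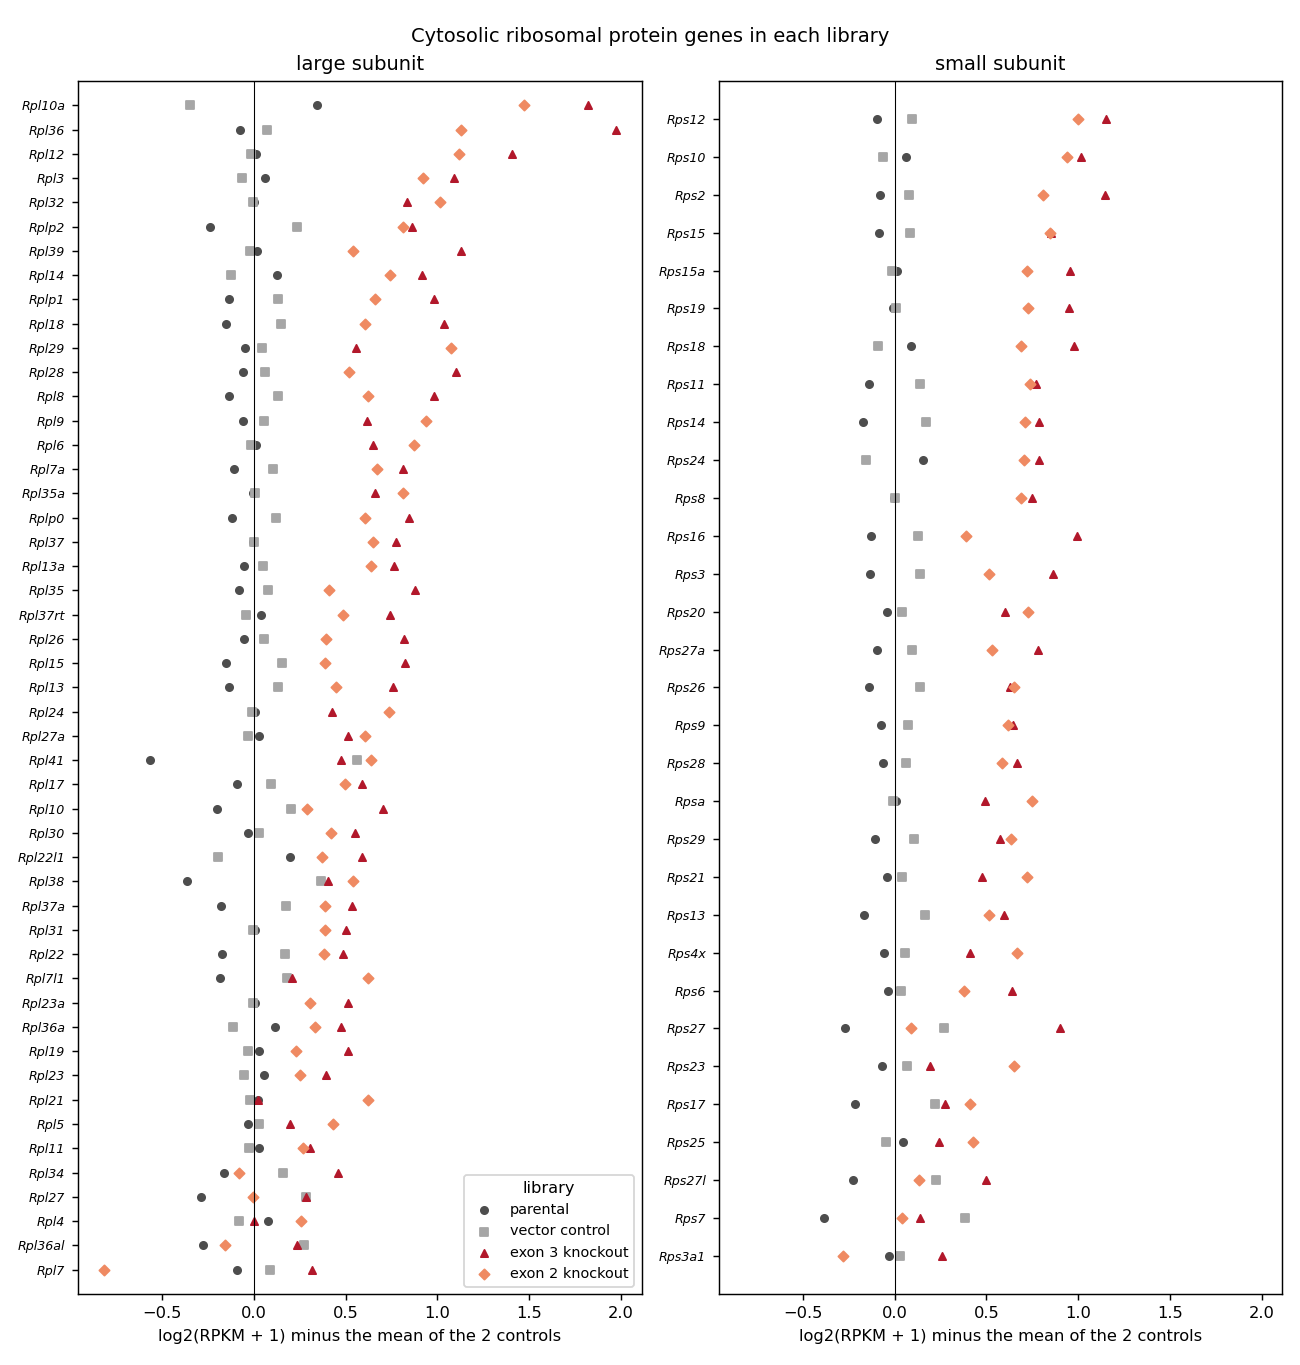
Each row is 1 tested member, sorted by its mean change within the large and small subunit, and each point is 1 library, given as log2(RPKM + 1) minus the mean of the 2 controls. In most rows both knockout points lie to the right of both control points, from Rpl10a and Rps12 at the top, and the rows at the bottom, Rpl7 and Rps3a1, have the knockouts on opposite sides of the controls.

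In the large subunit 44 of 50 tested genes were higher in both knockouts (median log2 change 0.59, range -0.25 to 1.65), and in the small subunit 28 of 32 (median 0.65, range -0.01 to 1.07). Together the 87 genes made up 4.11%, 4.13%, 6.27% and 5.98% of the RPKM sum of a library. The controls stood at 4.12% ± 0.0142 and the knockouts at 6.13% ± 0.200 (SD, n = 2 lines each), a ratio of 1.49, and the groups did not overlap (exact permutation test, two-sided, p = 0.333, the smallest it can give).

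The large subunit genes accounted for 2.34% ± 0.0154 in the controls and 3.42% ± 0.195 in the knockouts. The small subunit genes accounted for 1.79% ± 0.0296 and 2.71% ± 0.00541. Counted as reads recovered from the RPKM values, the members took 1.81% of reads in genes in the parental library (95% Wilson interval 1.803% to 1.815%). The shares were 1.95% (1.94% to 1.96%) for the vector control, 3.13% (3.12% to 3.13%) for the exon 3 knockout and 2.88% (2.87% to 2.89%) for the exon 2 knockout. The intervals cover counting error only and are far narrower than the gaps between lines. The 5 most abundant members, Rpl8, Rplp1, Rps3 and Rpl13a among them, held 1.82% ± 0.0617 of the RPKM total in the controls and 2.85% ± 0.243 in the knockouts.

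**Figure D3:**
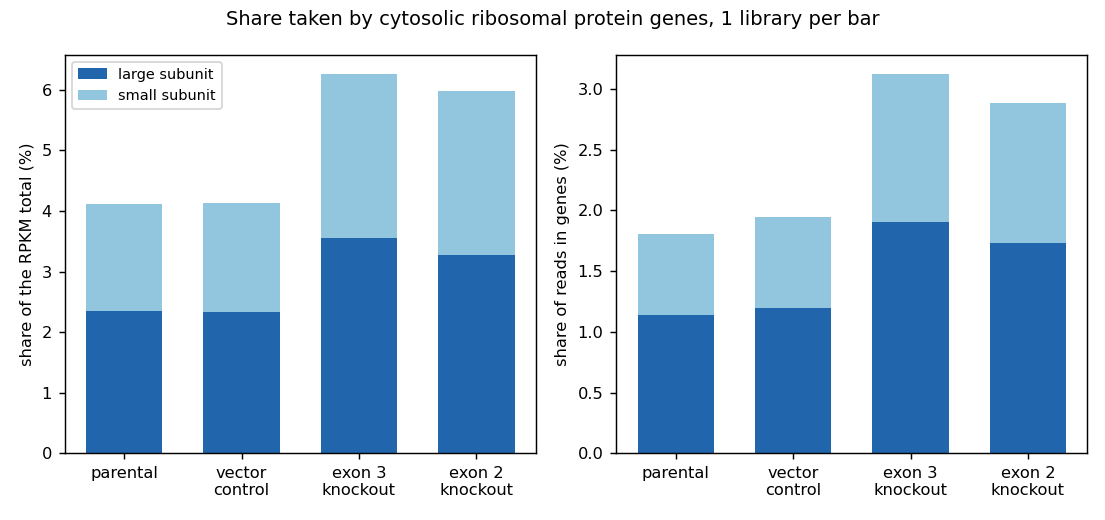
Share of the RPKM total (left) and of reads in genes (right) taken by the 87 ribosomal protein genes, 1 bar per library, split into large and small subunit. The bars are 4.11% and 4.13% of RPKM in the controls and 6.27% and 5.98% in the knockouts, and both colors are taller in the knockouts.

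The spread within the groups was set against this. Between the 2 controls, the median log2 ratio of vector control over parental was 0.12 for members and 0.16 for all tested genes. In that pair 3 members were at least 1.5-fold higher and 1 at least 1.5-fold lower, beside 15.5% and 11.2% of tested genes. Between the 2 knockouts, the median ratio of exon 2 over exon 3 was -0.14 for members and 0.05 for all tested genes, with 1 member at least 1.5-fold higher and 6 at least 1.5-fold lower in exon 2, beside 13.4% and 9.4% of tested genes.

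The 4 knockout over control pairs gave larger ratios. The members' median was 0.74 for exon 3 over parental, 0.65 for exon 2 over parental, 0.61 for exon 3 over vector control and 0.52 for exon 2 over vector control, where all tested genes had medians of -0.05, -0.02, -0.14 and -0.13. These pairs share lines and are not independent. At least 1.5-fold in all 4 pairs was reached by 20 members, 10 of the 50 large and 10 of the 32 small subunit genes, beside 2.36% of tested genes. The pair exon 3 over vector control shares no library with exon 2 over parental, and Pearson's r between them across the 82 members was 0.42. It was 0.35 for the other pairs that share no library, exon 3 over parental and exon 2 over vector control. Both are descriptions across genes that are not independent.

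**Figure D4:**
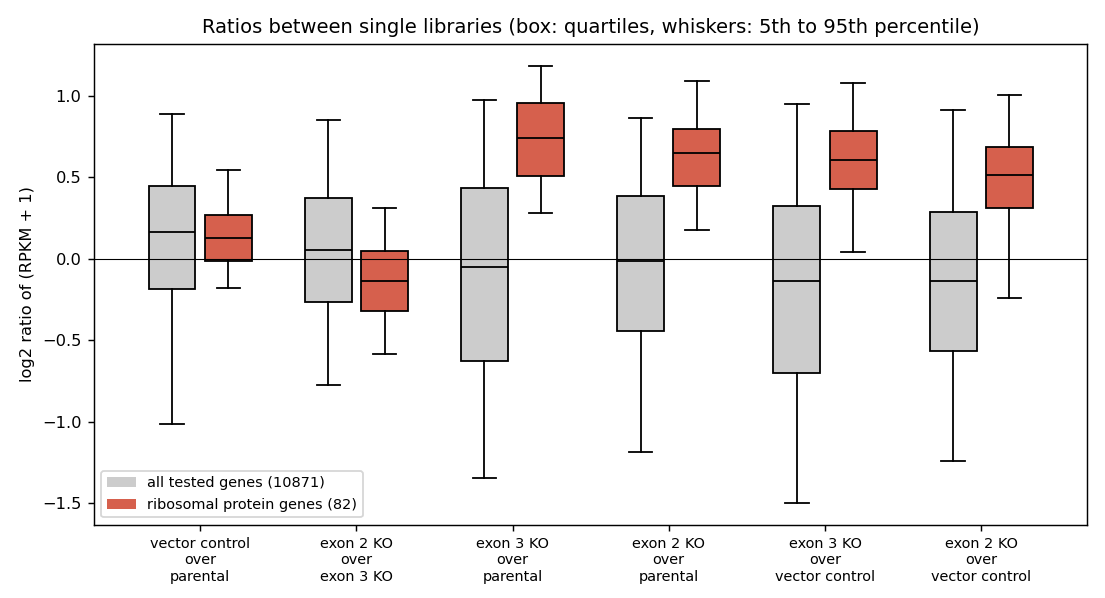
Log2 ratios of (RPKM + 1) between single libraries for all 10871 tested genes (gray) and the 82 ribosomal protein genes (red), with boxes at the quartiles, a line at the median and whiskers from the 5th to the 95th percentile. Member medians are 0.12 and -0.14 within the groups and 0.52 to 0.74 in the 4 knockout over control pairs, while those of all genes stay between -0.14 and 0.16.

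The members with the largest differences were Rpl10a, Rpl36, Rpl12, Rps12 and Rpl3. Rpl10a (chr17:28328471-28331033, plus strand), a protein of the mobile L1 stalk near the tRNA exit, had 59.8, 36.7, 168 and 132 RPKM. Both knockouts stood well above both controls, although the controls themselves were apart. Its log2 change was 1.65 (SE 0.33, limma adjusted p = 0.0957), with controls at 48.2 ± 16.3 and knockouts at 150 ± 25.5 (SD, n = 2), a ratio of 3.11. Rpl36 (chr17:56613416-56614243, plus strand), a large subunit protein, had 22.3, 24.8, 95.1 and 52.6 RPKM, so the controls were close and the knockouts were apart from each other. Its log2 change was 1.55 (SE 0.34, adjusted p = 0.101).

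Rpl12 (chr2:32961559-32965345, plus strand), at the base of the stalk that recruits elongation factors, had 31.4, 30.8, 84.1 and 68.7 RPKM. The 2 controls were nearly equal, and the log2 change was 1.26 (SE 0.30, adjusted p = 0.105). Rpl10a, Rpl36 and Rpl12 were the only tested members at least 2-fold higher in all 4 pairs, a size that 29 of the 10871 tested genes reached. Rps12 (chr10:23785183-23787275, minus strand), of the small subunit beak, had 22.3, 25.7, 54.3 and 48.7 RPKM and a change of 1.07 (SE 0.30, adjusted p = 0.134).

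Rpl3 (chr15:80077791-80091868, minus strand), which reaches toward the peptidyl transferase centre, had 13.9, 12.7, 29.3 and 26.0 RPKM and a change of 1.004 (SE 0.31, adjusted p = 0.146). These 5 share between 88.5% and 100% of their windows with other genes, and Rps12 shares windows with 22 genes, 21 of them pseudogenes. Whether reads of those copies enter the values was not tested.

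The 17 tested members with at most 50% shared windows had a median log2 change of 0.75, and 15 of them were higher in both knockouts. The 64 members above 50% had a median of 0.60, with 56 higher in both, and the 25 members at 100% a median of 0.54, with 21 higher in both. In the same order, the medians were 0.53, 0.50 and 0.46 after correction for GC content and length. After quantile normalization they were 0.45, 0.68 and 0.75, so the order of these classes depended on the scaling. The classes also differed in level, with medians of 890, 24.8 and 10.8 RPKM. Rps3, with 0% shared, had 1467, 1772, 2932 and 2301 RPKM and a change of 0.69 (SE 0.31, adjusted p = 0.261). Rpl8, at 5.43%, had 2322, 2789, 5019 and 3926 RPKM and a change of 0.80 (SE 0.32, adjusted p = 0.214). Rpl8 rested on between 54831 and 91192 reads per library, whereas Rps23 rested on 19 to 30, so the order of the lowest members is the least precise.

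The stalk proteins Rplp0, Rplp1 and Rplp2 form the flexible arm of the large subunit that activates the GTPases of translation, with Rplp0 as the anchor. Rplp0 had 724, 855, 1413 and 1200 RPKM (change 0.73, SE 0.30, adjusted p = 0.229). Rplp1 had 1819, 2189, 3946 and 3159 RPKM (change 0.82, SE 0.31, adjusted p = 0.203). Rplp2 had 178, 248, 384 and 370 RPKM (change 0.84, SE 0.30, adjusted p = 0.188). All 3 were higher in both knockouts than in both controls, the ratios of group means being 1.65, 1.77 and 1.77. After correction for GC content and length their changes were 0.55, 0.44 and 0.49. Their shared windows were 40%, 48.0% and 45.3%.

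Several members have known roles outside the ribosome. Rpl5 and Rpl11 bind and inhibit Mdm2, the ubiquitin ligase of p53, when ribosome assembly stalls. Rpl5 had 6.16, 6.47, 7.39 and 8.86 RPKM and Rpl11 had 4.41, 4.21, 5.56 and 5.40 RPKM. Both genes were higher in both knockouts than in both controls, with changes of 0.31 (SE 0.33, adjusted p = 0.616) and 0.29 (SE 0.34, adjusted p = 0.659), and both share 100% of their windows. After correction for GC content and length the changes were 0.72 for Rpl5 and 0.14 for Rpl11, on either side of the corrected median of 0.51.

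Rps6, whose phosphorylation by S6 kinase reports mTORC1 activity, had 1.79, 1.94, 3.46 and 2.73 RPKM (change 0.51, SE 0.36, adjusted p = 0.454). Rpl13a, which can leave the ribosome to silence inflammatory mRNAs, had 1315, 1414, 2318 and 2125 RPKM (change 0.70, SE 0.30, adjusted p = 0.238). Rps19, the gene most often mutated in Diamond-Blackfan anemia, had 256.05, 260, 499 and 427 RPKM (change 0.84, SE 0.29, adjusted p = 0.178). For Rpl13a and Rps19 the controls lay within a small range and both knockouts stood clear of it.

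Rpsa, also described as a laminin receptor, had 10.1, 9.98, 14.5 and 17.5 RPKM (change 0.62, SE 0.32, adjusted p = 0.305). Rps27a, made as a fusion with ubiquitin, had 11.3, 13.04, 21.5 and 18.0 RPKM (change 0.65, SE 0.31, adjusted p = 0.282). All of these 7 genes had both knockouts above both controls.

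The 10 members that overlapped between the groups were Rpl7, Rps3a1, Rpl36al, Rps7, Rpl4, Rpl27, Rpl34, Rps27l, Rps27 and Rpl41. Rpl7 (chr1:16101295-16104662, minus strand), a large subunit protein, had 162, 183, 215 and 97.3 RPKM, so the exon 3 knockout was above and the exon 2 knockout below both controls. Its change was -0.25 (SE 0.37, adjusted p = 0.738), the lowest of all members. Rps3a1 (chr3:86137940-86142702, minus strand), of the small subunit platform, showed the same order with 25.5, 26.6, 31.3 and 21.3 RPKM (change -0.01, SE 0.32, adjusted p = 0.991). Such opposite placement was seen for 2 of 82 members and 7.88% of tested genes.

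Rps7, which binds Mdm2 as well, had 12.2, 21.5, 18.0 and 16.7 RPKM (change 0.09, SE 0.35, adjusted p = 0.908), with the controls on either side of the knockouts. Rpl4, with 10.46% of its windows shared, had 1479, 1325, 1400 and 1671 RPKM (change 0.13, SE 0.30, adjusted p = 0.842). The other 8 members with a mean of at least 1000 RPKM were higher in both knockouts. Rpl41, the shortest member, had 67.3, 148, 139 and 156 RPKM, so that the parental line stood apart from the other 3. At the other edge, Rpl21 was separated by very little. It had 6.16 RPKM in the parental line against 6.17 in the exon 3 knockout.

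Copies of ribosomal protein genes were compared with their main genes. Of 10 such rows, 5 were tested, and 3 of these were higher in both knockouts, with a median change of 0.42. Rpl22l1, which can replace Rpl22 in the large subunit, had 22.3, 16.8, 29.6 and 25.3 RPKM (change 0.48, SE 0.31, adjusted p = 0.417), and Rpl22 had 338, 428, 532 and 496 (change 0.43, SE 0.30, adjusted p = 0.435). Rpl7l1, a nucleolar assembly factor related to Rpl7, had 61.3, 79.2, 80.5 and 108 RPKM (change 0.42, SE 0.31, adjusted p = 0.477), and so was highest in the exon 2 knockout, where Rpl7 was lowest. Rps27l, a p53 target, had 153, 208, 252 and 196 RPKM and overlapped (change 0.32, SE 0.31, adjusted p = 0.592), as did Rps27 with 7.53, 11.4, 18.2 and 9.95 RPKM (change 0.49, SE 0.37, adjusted p = 0.483).

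Rpl36al had 11.2, 16.8, 16.3 and 12.2 RPKM (change 0.04, SE 0.34, adjusted p = 0.965), and Rpl36a had 3.19, 2.58, 4.38 and 3.88 (change 0.40, SE 0.35, adjusted p = 0.545). Rpl39 had 8.82, 8.58, 20.2 and 13.1 RPKM (change 0.83, SE 0.34, adjusted p = 0.220) while its copy Rpl39l was listed at 0. Rpl10 had 9.83, 13.3, 19.3 and 14.2 RPKM (change 0.50, SE 0.33, adjusted p = 0.426) and its testis copy Rpl10l was likewise at 0. Rpl3l, the muscle form of Rpl3, was at 0.183, 0.0965, 0.0348 and 0 RPKM. Rpl26, whose human counterpart has a close copy, had 133, 144, 245.5 and 182.5 RPKM (change 0.61, SE 0.30, adjusted p = 0.293), and the X-linked Rps4x had 28.6, 31.0, 39.96 and 47.8 (change 0.54, SE 0.30, adjusted p = 0.348). Of the copies named here, Rpl3l and Rpl39l had 0% of their windows in any other gene, Rpl10l 0.53%, Rpl7l1 7.80% and Rps27l 9.02%. Rpl22l1 had 71.5% and Rpl36al 100%, and Rpl37rt had no annotated coding sequence to compare. The other gene need not be the main gene, and whether reads were split between copies and main genes was not tested.

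Fau and Rack1, ribosomal proteins that the symbol rule leaves out, were both higher in the 2 knockouts than in the 2 controls. Fau, a ubiquitin-like fusion to a small subunit protein, had 12.4, 18.7, 23.0 and 20.6 RPKM (change 0.48, SE 0.33, adjusted p = 0.430). Rack1, the scaffold on the small subunit head, had 2269, 2637, 4743 and 3053 RPKM (change 0.64, SE 0.33, adjusted p = 0.318). Of 13 rows with a pseudogene name, 6 were at 0 in every library and 2 reached a mean of 1 RPKM. Rps15a-ps5, the higher of these, had 10.1, 10.8, 20.2 and 18.5 RPKM, and Rps15a itself had 304, 298, 584 and 497.

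Gene groups tied to the ribosome were read from the same fit, none of them with a gene past an adjusted p of 0.05. For comparison, 21.9% of all tested genes were higher and 31.2% lower in both knockouts, with a median change of -0.08. The 76 mitochondrial ribosomal protein genes, whose products build the separate ribosome of mitochondria, had a median change of 0.38, with 34 higher and 3 lower in both knockouts. Their medians were 0.65 and 0.58 over the parental line but 0.13 and 0.05 over the vector control, and vector control over parental was 0.48, so their difference was of the order of the spread between the controls. The cytosolic genes had medians of 0.61 and 0.52 over the vector control and 0.12 between the controls. That difference between the lists was not tested. The highest mitochondrial members were Mrps34 (47.8, 54.0, 123 and 89.5 RPKM) and Mrps18b (48.8, 53.3, 109 and 93.9), and the lowest Mrps6 (201, 183, 130 and 156) and Mrps22 (34.8, 44.3, 29.0 and 33.0).

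The 49 ribosome biogenesis genes, which make and process ribosomal RNA and assemble the subunits, had a median change of 0.26, with 23 higher, 7 lower and 19 overlapping. At the top stood Rrp9, a small nucleolar ribonucleoprotein component, with 42.8, 44.4, 67.2 and 105 RPKM, and the rRNA methyltransferase Nop2, with 41.9, 50.6, 74.8 and 103 RPKM. At the bottom stood Nop58, a core protein of methylation guide particles, with 47.5, 69.4, 26.6 and 39.3 RPKM, and the assembly ATPase Mdn1, with 6.05, 5.50, 2.25 and 3.62 RPKM. After correction for GC content and length the list had a median of 0.35, with 29 higher and 0 lower, and Nop58 and Mdn1 had changes of -0.11 and 0.15. The correction moved all genes as well. Of 10775 genes so treated 2833 were higher and 2257 lower, against 2384 and 3395 of 10871 before, and the median was 0.05.

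**Figure D5:**
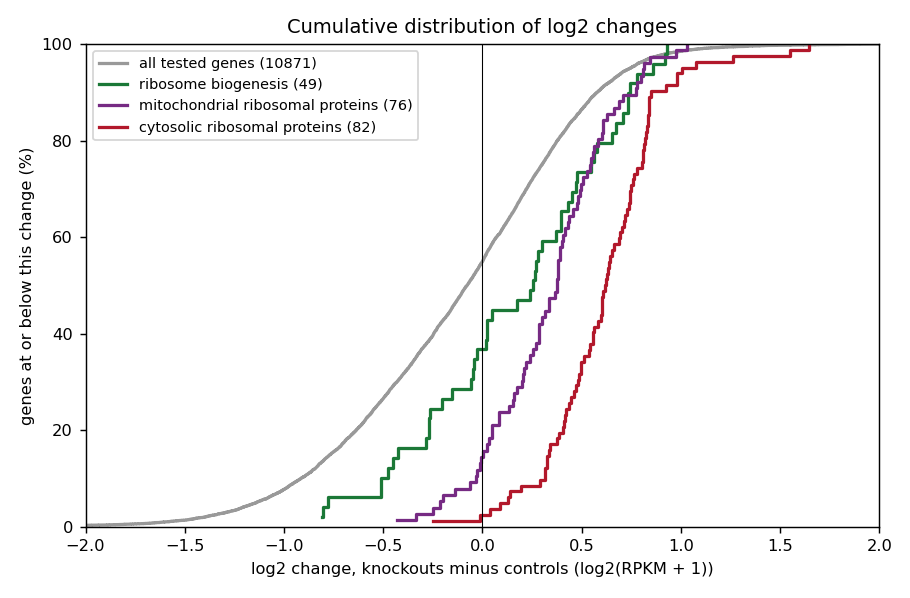
Percent of genes at or below each log2 change, knockouts minus controls, for 82 cytosolic ribosomal protein genes, 76 mitochondrial ones, 49 ribosome biogenesis genes and all 10871 tested genes (the x axis is cut at -2 and 2). The medians are 0.62, 0.38, 0.26 and -0.08, and the cytosolic curve crosses 0 with 2 genes below it.

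Other mRNAs that begin with a TOP motif had a median change of 0.32 over 15 tested genes, with 7 higher and 1 lower. The elongation factor subunit Eef1g had 27.9, 37.4, 77.1 and 69.0 RPKM (change 1.15, SE 0.31, adjusted p = 0.127), and the initiation factor subunit Eif3f had 200, 231, 471 and 357 (change 0.93, SE 0.30, adjusted p = 0.162). The most abundant of the list, Eef1a1, had 2091, 1866, 2039 and 2228 RPKM and overlapped, and the histone chaperone Nap1l1 was lower in both knockouts (26.6, 37.4, 21.1 and 24.9 RPKM). The RNA-binding protein gene Hnrnpa1 had 10.2, 11.3, 7.67 and 11.5 RPKM and overlapped. After correction for GC content and length the list had a median of 0.54, with 12 higher and 0 lower, and Nap1l1 had a change of 0.19. Over all 10775 genes so treated the median was 0.05, with 2833 higher and 2257 lower. Of 10 snoRNA host genes only Zfas1 was found in the table, with 278, 239, 1061 and 998 RPKM (change 1.99, SE 0.29, adjusted p = 0.0731).

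Among 15 regulators of ribosome production, 2 (13.3%) were higher and 5 (33.3%) lower in both knockouts, with a median of -0.04. These values lay near those of all tested genes, 21.9% higher, 31.2% lower and a median of -0.08. Rps6kb1, the kinase that phosphorylates Rps6, was lower with 19.3, 25.05, 8.37 and 10.1 RPKM (change -1.17, SE 0.32, adjusted p = 0.130). The translation repressor Eif4ebp1 was higher with 366, 521, 797 and 681 RPKM (change 0.75, SE 0.31, adjusted p = 0.229). Mtor had 23.1, 10.8, 20.8 and 28.3 RPKM and overlapped, and Mycn was at 3.96 RPKM in the parental line and below 0.1 in the other 3. Myc, a driver of ribosomal protein transcription, had 256.1, 153, 201 and 402 RPKM, with the exon 3 knockout between the controls.

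The start of the transcript was examined for the TOP motif. RefSeq promoter sequences (GRCm38.p6) were matched for 66 of the 87 members, 62 of them tested. A run of at least 7 C or T on the gene's strand, within the 5 bases before and the 13 bases from the annotated start, was present in 37.1% of the tested members, in 8.98% of tested genes and in 9.36% of all promoters. It was present in 2.99% of mitochondrial ribosomal protein promoters. The stretches below reach from 12 bases before the start to 18 from it, with the run in capitals as far as it lies in the searched bases. Shown are 3 members among those with the largest changes or special roles that hold a run there, and 3 that do not. The run of C printed for Rpl10a begins before the searched bases and so was not counted.

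Rpl12, chr2:32961700-32961729, plus strand: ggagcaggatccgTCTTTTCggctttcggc

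Rplp2, chr7:141447639-141447668, plus strand: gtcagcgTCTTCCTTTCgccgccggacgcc

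Rps6, chr4:86857350-86857379, minus strand: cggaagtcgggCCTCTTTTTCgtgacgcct

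Rpl10a, chr17:28328459-28328488, plus strand: gcgcccccccagcggccgcaaactgcagcg

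Rps19, chr7:24884580-24884609, plus strand: gaaatctcgcgagactcgacgcccgacttg

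Rps3a1, chr3:86142651-86142680, minus strand: aagccggaagggcgaaagagcaagggtcac

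The 23 tested members with a run had a median log2 change of 0.70, with 22 higher in both knockouts, and the 39 without had a median of 0.56, with 31 higher in both. After correction for GC content and length the medians were 0.53 and 0.47, with 22 of 23 and 30 of 38 higher in both. Annotated starts are not always the used ones, so a missing run says only that these letters are not in this window. The ETS core CCGGAAG, on either strand of the 300 bases from 250 before the start to 50 after it, was found in 38.7% of tested members, 34.3% of mitochondrial ribosomal protein promoters, 19.5% of tested genes and 9.12% of all promoters. The YY1 core AAGATGG was found in 14.5%, 19.4%, 7.76% and 6.48% of the same sets. The capitals below mark CCGGAAG in 3 members, in stretches from 80 bases before the start to 20 from it.

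Rps10, chr17:27635225-27635324, minus strand: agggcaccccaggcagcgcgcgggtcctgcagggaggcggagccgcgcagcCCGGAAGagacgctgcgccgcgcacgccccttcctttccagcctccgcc

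Rps18, chr17:33955646-33955745, minus strand: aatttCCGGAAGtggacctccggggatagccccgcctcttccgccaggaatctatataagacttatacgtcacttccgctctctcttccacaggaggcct

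Rpl11, chr4:136053374-136053473, minus strand: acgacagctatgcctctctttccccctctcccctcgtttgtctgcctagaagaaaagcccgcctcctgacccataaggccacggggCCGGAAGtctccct

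Members with CCGGAAG had a median change of 0.60 (24 genes, 20 higher in both knockouts) and members without it 0.62 (38 genes, 33 higher in both). Rps10, with 55.9, 51.1, 109 and 104 RPKM, and Rps18, with 61.8, 54.4, 115 and 94.1, lay above the median member, and Rpl11 below it. These values are a description without a test.

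The members are short genes, with a median length of 472.5 bases against 1413 over all tested genes, while their median GC content was 52.2% against 53.0%. Tested genes of at most 800 bases that are not members had a median change of 0.12, with 29.3% of 2210 higher in both knockouts, beside -0.08 and 21.9% over all tested genes. With each library corrected for coding GC content and length, the members' median was 0.51 and 68 of 81 were higher in both knockouts, beside 0.05 and 26.3% over all genes so treated. Several named genes moved by over 1.5 times under this correction. Lower values were found for Rpl8 (0.53), Rpl13a (0.46), Rps19 (0.53) and Rpsa (0.41). Higher values were found for Rps4x (0.83), Rpl22l1 (0.97), Rps27l (0.68), Rpl4 (0.31), Rps7 (0.21) and Rpl36al (0.08). Outside the members, Fau had 0.11, Mrps22 0.026, Eef1a1 0.34, Eif4ebp1 0.34, Mtor 0.93 and Rps6kb1 -0.66. Among the 15 regulators 3 were then higher and 3 lower in both knockouts. Over all genes so treated 2257 of 10775 were lower in both.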

How the data were processed

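RNA was sequenced from 4 mouse mammary tumor lines, 1 library each, as 75-base read pairs. The authors deposited 1 RPKM value per gene and library in a single table. Their processing notes name CASAVA 1.8, GSNAP and GRCm38, and the counting tool and gene model are not given in the sources used here. Whole reads were recovered from the steps of the RPKM values (100% of 15405 genes, tolerance 0.001 reads) and used for depths, shares and 1 added alternative.

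Genes with a mean RPKM of at least 1 (10871) were tested as log2(RPKM + 1) by limma 3.58.1 in R 4.3.3 with an intensity trend, 2 knockouts against 2 controls and Benjamini-Hochberg adjustment at 0.05. The fit was also run on simulated data in which every gene had the same spread, so that run does not measure its error rate in these libraries. Shared sequence was counted as exact 75-base coding windows in GENCODE M21, and 99.4% of symbols matched it. Promoter sequences came from RefSeq (GRCm38.p6).

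Members and lists were chosen with earlier results of these data known. Members named in full were the 5 most abundant, the 5 highest and 5 lowest changes, the stalk proteins, copies with their main genes, and Rpl5, Rpl11, Rps6, Rpl13a, Rps19, Rpsa and Rps27a, and of other lists the 2 highest and 2 lowest changes. Rps23, Rps10, Rps18, Rps15a, Rpl41, Rpl21, Rpl37, Rpl37rt, Myc and Eef1a1 were named after their values were seen. Some members are not reported here by name. Alternatives were another pseudocount, other scalings and filters, GC and length correction, limma without trend or with a robust prior, voom on recovered reads (chosen after seeing the data), and each library left out.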

Additional observations from a re-analysis of the deposited data

Results flagged for a closer look

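In 2 members the knockouts lay on opposite sides of both controls. The log2 ratio of the exon 3 over the exon 2 knockout was 1.14 for Rpl7 and 0.53 for Rps3a1. With 1 library per knockout line, this difference was not tested.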

How the results depend on the processing

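The limma call count for members, 0 as reported, was 3 with a robust prior (Rpl10a, Rpl12 and Rpl36, beside 0.396% of tested genes called higher) and 0 to 6 when each library was left out, 5 without the parental and 6 without the vector control library, where 2.19% and 1.07% of tested genes were called higher and 550 and 335 genes lower. The cause was not tested. Members higher in both knockouts numbered 66 (of 76 tested) to 74 (of 82) over the alternatives with all libraries, beside 17.6% to 27.7% of tested genes, and 73 to 79 with 1 library left out, where the criterion is looser and 31.3% to 37.8% of tested genes met it. Members lower in both numbered 2 without a filter, Rpl3l and Rps12l2, which had at most 0.183 RPKM and 7 reads in any library. With 1 library left out they numbered 0 to 3, beside 4431 to 5140 of the 10871 tested genes. The median log2 change was 0.71 after median-ratio scaling, 0.51 after GC and length correction and 0.56 to 0.71 with 1 library left out. The difference in the RPKM share, 2.002 percentage points, was 1.08 for the large and 0.923 for the small subunit, 1.71 without the 10 most abundant genes, and 1.86 to 2.14 with 1 library left out. In reads it was 1.13 points, with 0.645, 0.480, 0.877 and 1.0039 to 1.25 in the same order. Among single genes, Rpl7 turned to 0.068 after GC and length correction and ranged from -0.82 to 0.32 with 1 library left out. Rps3a1 turned to 0.079 after median-ratio scaling, 0.052 after quantile normalization and 0.31 after GC and length correction, and ranged from -0.28 to 0.26. Rpl36al ranged from -0.24 to 0.31 and Rps7 from -0.30 to 0.47 with 1 library left out, and Rpl4 turned to -0.13 after quantile normalization. No paired analysis was possible because neither control line is the partner of a particular knockout line. Low members such as Rps23, with 19 to 30 reads, are limited by depth.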
